A study of Homo sapiens with 17 samples.

Results

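The genes described here are 105 long noncoding RNAs (lncRNAs, transcripts without a known protein product) whose level rose when human fibroblasts were driven into senescence. They were chosen from 18866 lncRNA genes among 62754 gene rows by their levels alone: a mean of at least 0.5 CPM (the count over all gene counts of the library, scaled to 1000000) in the senescent control libraries, and at least 4 times the mean of the non-senescent libraries plus 0.05 CPM. The rule also left out 1 lncRNA by name, which did not meet these thresholds. Of the 105, 47 carried a symbol and 58 were known by an Ensembl identifier alone, and they lay on 20 chromosomes. The same thresholds held for 356 protein-coding genes.

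The cells were IMR90 ER:RAS, a human lung fibroblast strain carrying a retroviral fusion of the oestrogen receptor and the RAS G12V oncogene that 4-hydroxytamoxifen (4OHT) switches on. Polyadenylated RNA was sequenced with a strand-specific kit 7 days after induction, with siRNA transfected the day before it. The groups were DMSO with non-targeting siRNA (DMSO siNT, n = 5), 4OHT with non-targeting siRNA (4OHT siNT, n = 6) and 4OHT with an siRNA against SMARCA4, the ATPase of the SWI/SNF chromatin remodeller (4OHT siSMARCA4, n = 6). Every group carried the ER:RAS construct and every cell received an siRNA, and no library combined DMSO with siSMARCA4. Each label holds an siRNA number (2 or 4, also on siNT libraries), a replicate number and a tag V or VM whose meaning is not given here. All 4OHT siNT libraries were VM, while 2-1V and 2-2V of DMSO siNT and 2-3V, 4-2V and 4-3V of 4OHT siSMARCA4 were V. The tag is thus in part confounded with the group. Libraries that share both numbers and differ in the tag were counted separately (2-2V and 2-2VM in DMSO siNT, and 2-3V and 2-3VM, 4-2V and 4-2VM in 4OHT siSMARCA4). Nothing states that replicates came from separate cultures, so p-values measure the spread between these libraries, which may be technical.

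LncRNAs act in many ways. Some host microRNAs in their exons or introns, some hold proteins on chromatin or away from it, and for some the act of transcription affects the gene next door. In oncogene-induced senescence cells stop dividing under p53 and RB control, reorganise their chromatin and secrete inflammatory cytokines, proteases and growth factors, the senescence-associated secretory phenotype (SASP). Transcription factors of the AP-1 family open many of the enhancers used in this state, and NF-kB and C/EBP factors drive many SASP genes. Endogenous retroviral long terminal repeats (LTRs) once served as viral promoters and still serve as promoters of many lncRNAs.

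The sequences of 2 kinds of member are given first. The lncRNA with the highest level, MIR34AHG, holds the microRNA miR-34a in an exon, and MIR3142HG holds miR-146a in an exon. miR-34a is a p53 target that represses cell cycle messages, and miR-146a is an NF-kB target that represses the adaptors IRAK1 and TRAF6. Their mature sequences (RefSeq, GRCh38.p14) are shown with the seed, bases 2 to 8, in capitals. The polyadenylated libraries do not measure the mature microRNAs.
hsa-miR-34a-5p: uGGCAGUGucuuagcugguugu
hsa-miR-34a-3p: cAAUCAGCaaguauacugcccu
hsa-miR-146a-5p: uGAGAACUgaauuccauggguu
hsa-miR-146a-3p: cCUCUGAAauucaguucuucag
None of these seeds is shared with another. miR-34a-5p lies at chr1:9151735-9151756 on the minus strand and miR-146a-5p at chr5:160485372-160485393 on the plus strand. miR-3142 lies in an intron of MIR3142HG, miR-7845 in an intron of MYOSLID and miR-4280 in an intron of MIR4280HG.

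The second kind is a set of 7 members that start inside a THE1 element, an LTR of the MaLR family of retrotransposons. Of the 7, 6 hold the motif TGANTCA near their start, which allows any middle base and is wider than the usual AP-1 site TGA(C/G)TCA. For 4 of them 42 bases of the LTR (GRCh38, gene strand) are shown with the motif in capitals. PDE7B-AS1 and LINC02392 hold TGAGTCA, while ENSG00000236453 and LINC00520 hold TGAATCA, which is outside the usual site.
PDE7B-AS1: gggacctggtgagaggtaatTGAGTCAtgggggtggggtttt
ENSG00000236453: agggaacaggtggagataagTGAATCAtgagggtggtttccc
LINC02392: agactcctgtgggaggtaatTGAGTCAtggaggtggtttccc
LINC00520: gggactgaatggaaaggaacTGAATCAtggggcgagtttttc
These windows lie at chr6:136225702-136225743 (minus strand), chr7:94022688-94022729 (plus), chr12:90280771-90280812 (plus) and chr14:55796766-55796807 (minus), in the order above. The motif sat at -125 to 28 bases from the annotated start. A match is a description of letters and not evidence of binding.

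Depth was similar between groups, with totals over genes and repeats of 39.1 to 69.0 (in units of 1000000 counts) per library. SMARCA4 itself stood at 210 ± 17.4 CPM (SD, n = 5) in DMSO siNT, 263 ± 10.6 (n = 6) in 4OHT siNT and 89.0 ± 22.5 (n = 6) in 4OHT siSMARCA4, a log2 fold change of -1.61 (SE 0.127) between the last 2 groups with an adjusted p of 5.13e-07 in edgeR's quasi-likelihood test over all genes. All 12 fibroblast markers were at 1 CPM or more in every group, with summed levels of 30880 to 40950 CPM in DMSO siNT, 21220 to 31740 in 4OHT siNT and 10840 to 20750 in 4OHT siSMARCA4. None of 6 epithelial and none of 6 leukocyte markers reached 1 CPM, and 2 of 5 endothelial markers did. In bulk RNA, fewer cells making a transcript and less of it per cell cannot be told apart.

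Libraries differed in how many counts fell on the strand opposite a protein-coding gene, and this touches some members. Over 187 other lncRNAs with at least 50% of their exon bases antisense to a well-expressed coding gene, the median count as a percentage of the coding gene's count was 0.201 to 1.24 in DMSO siNT, 0.144 to 1.29 in 4OHT siNT and 0.48 to 1.09 in 4OHT siSMARCA4. The ranges overlapped, but within 4OHT siNT the libraries 2-2VM and 2-3VM stood at 0.144 and 0.145 while 2-1VM, 4-1VM and 4-2VM stood at 0.974, 1.22 and 1.29. The mean CPM of a member in the latter 3 over that in the former 2 was 0.418 to 1.81 (median 0.967) for the 77 members without antisense exon bases, and none of these reached 2. Of the 28 members with antisense exon bases, 16 reached 2, at 2.82 to 16.6 times (median 6.76), and 12 did not. For 15 of the 16, the coding gene on the other strand also rose with 4OHT in the fit, as it did for 7 of the 11 tested among the other 12, beside 29.4% of all protein-coding genes. C10orf55, on the strand opposite PLAU (urokinase), shows the pattern: its counts were 0.40% and 0.41% of those of PLAU in the 2 low libraries and 2.57% to 3.50% in the 3 high ones. For these 16, an antisense transcript and reads of the sense gene given the wrong strand cannot be told apart in these counts.

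**Figure D1:**
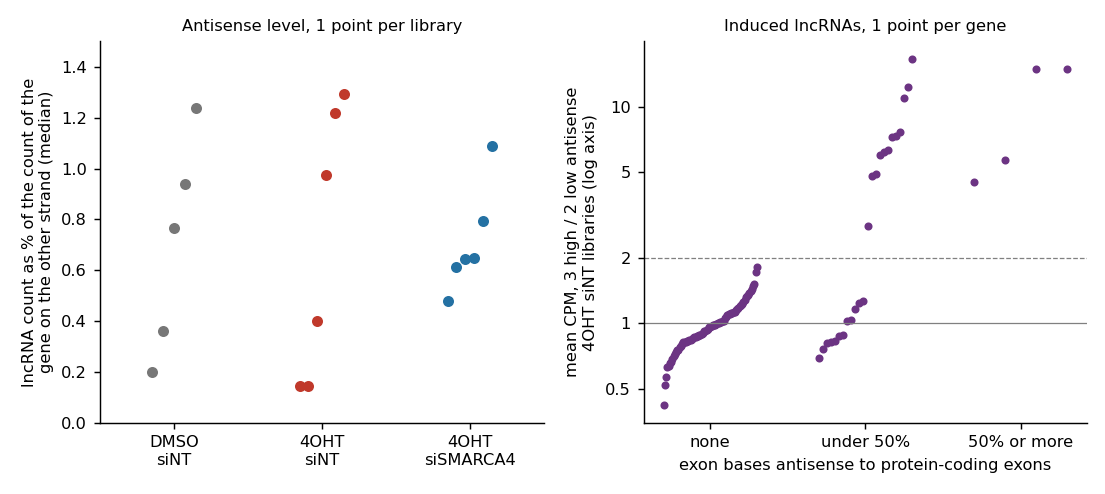
Antisense level by library and the members that move with it. Left, the median antisense count of 187 lncRNAs as a percentage of the sense gene, 1 point a library. Right, each member's mean CPM in 3 4OHT siNT libraries of high antisense level over that in 2 of low level, on a log axis, by share of antisense exon bases. The 77 members without antisense exon bases lie between 0.418 and 1.81, and the 16 at 2 or more have antisense exon bases.

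The levels of the 105 members in DMSO siNT and 4OHT siNT chose them, so they are given as a description. Mean levels in 4OHT siNT ran from 0.528 to 93.5 CPM with a median of 1.87, against a median of 0.139 in DMSO siNT. Most were therefore scarce, with 55 members under 2 CPM and 20 over 10 CPM. The ratio to DMSO siNT plus 0.05 CPM ran from 4.0 to 97.0 with a median of 7.88. All 104 members that could be fitted were called higher in 4OHT against DMSO, as their choice fixed, beside 38% of all lncRNAs tested (19.8% higher). In 94 of the 105 every 4OHT siNT library lay above every DMSO siNT library, beside 11.3% of all lncRNAs tested, which the choice favours too. Summed over members, the libraries stood at 65.5 to 113 CPM in DMSO siNT and 545 to 829 CPM in 4OHT siNT, and the 16 that follow the antisense level made up 167 CPM of the mean sum. ENSG00000289009, ENSG00000259827 and LINC02669 lay just inside the ratio threshold at 4.0015, 4.0169 and 4.0296, and LINC02263, STEAP1B-AS1 and LINC02015 just outside at 3.9245, 3.9535 and 3.9535. Leaving out a member's highest 4OHT siNT library would take 11 members below the ratio and 2 below the level. MT1JP, a metallothionein pseudogene transcript, rests on 1 library, with 3.01 CPM in 4-3VM and 0.0175 to 0.0529 in the other 5, and it did not pass the filter on low counts, which left 104 members tested.

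MIR34AHG (ENSG00000228526, chr1:9148011-9198906, minus strand) was the highest. It stood at 13.2, 9.53, 14.7, 13.4 and 9.74 CPM in DMSO siNT, and between 87.9 and 102 CPM in 4OHT siNT with a median of 91.6. The groups were far apart and the 4OHT siNT libraries close to each other. Per kilobase of exon the highest was another member, RIPOR3-AS1 (ENSG00000234693, chr20:50645471-50662275, plus strand), at 45.2 CPM per kb against 10.7 for MIR34AHG in 4OHT siNT. RIPOR3-AS1 stood at 1.25, 1.16, 2.14, 1.95 and 1.64 CPM in DMSO siNT and 35.3 to 54.4 CPM (median 43.0) in 4OHT siNT. LINC00973 (ENSG00000240476, chr3:98981058-98983096, plus strand) stood at 6.61, 7.91, 10.1, 12.6 and 12.6 CPM in DMSO siNT and 34.3 to 47.2 CPM (median 42.2) in 4OHT siNT. C10orf55 (ENSG00000222047, chr10:73909969-73922777, minus strand) and HCG20 (ENSG00000228022, chr6:30743790-30792250, plus strand, opposite the immediate early gene IER3) were also among the 8 highest, at means of 79.9 and 35.3 CPM in 4OHT siNT. Both follow the antisense level, with 17.4 to 160 CPM and 8.58 to 77.0 CPM across the 4OHT siNT libraries, so their means are uncertain.

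The members that start in THE1 elements stood at means of 0.0146 to 0.497 CPM in DMSO siNT, beside a median of 0.139 over all members. LINC02154 (ENSG00000235385, chrX:13266041-13303452, minus strand) stood at 0.337, 0.241, 0.0557, 0.203 and 0.324 CPM in DMSO siNT and 25.1 to 29.9 CPM (median 27.9) in 4OHT siNT. ENSG00000236453 (chr7:94022833-94066661, plus strand) stood at 0.393, 0.307, 0.483, 0.75 and 0.511 CPM in DMSO siNT and 15.4 to 18.2 CPM (median 16.1) in 4OHT siNT. LINC01705 (ENSG00000232679, chr1:222010825-222064773, minus strand) stood at 0.15, 0.175, 0.0557, 0.203 and 0.256 CPM in DMSO siNT and 14.2 to 19.2 CPM (median 14.8) in 4OHT siNT. These 3 make up the rest of the 8 highest, and none of them has antisense exon bases. LINC02392 (ENSG00000258183, chr12:90280894-90300974, plus strand) had 4 counts over the 5 DMSO siNT libraries and 1544 over the 6 of 4OHT siNT, a ratio of CPM of 330 with a 95% counting interval of 129 to 1212 that covers counting error only. The remaining 3, PDE7B-AS1, SCAT8 and LINC00520, rose from 0.333 to 10.9, from 0.497 to 5.54 and from 0.111 to 4.01 CPM on average. ENSG00000290936 and ENSG00000286225 had no count in DMSO siNT. With 3 counts over the 5 libraries taken as the most that 0 allows, ENSG00000290936 was at least 97.1-fold higher in 4OHT siNT, and ENSG00000286225 at least 55.5-fold.

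**Figure D2:**
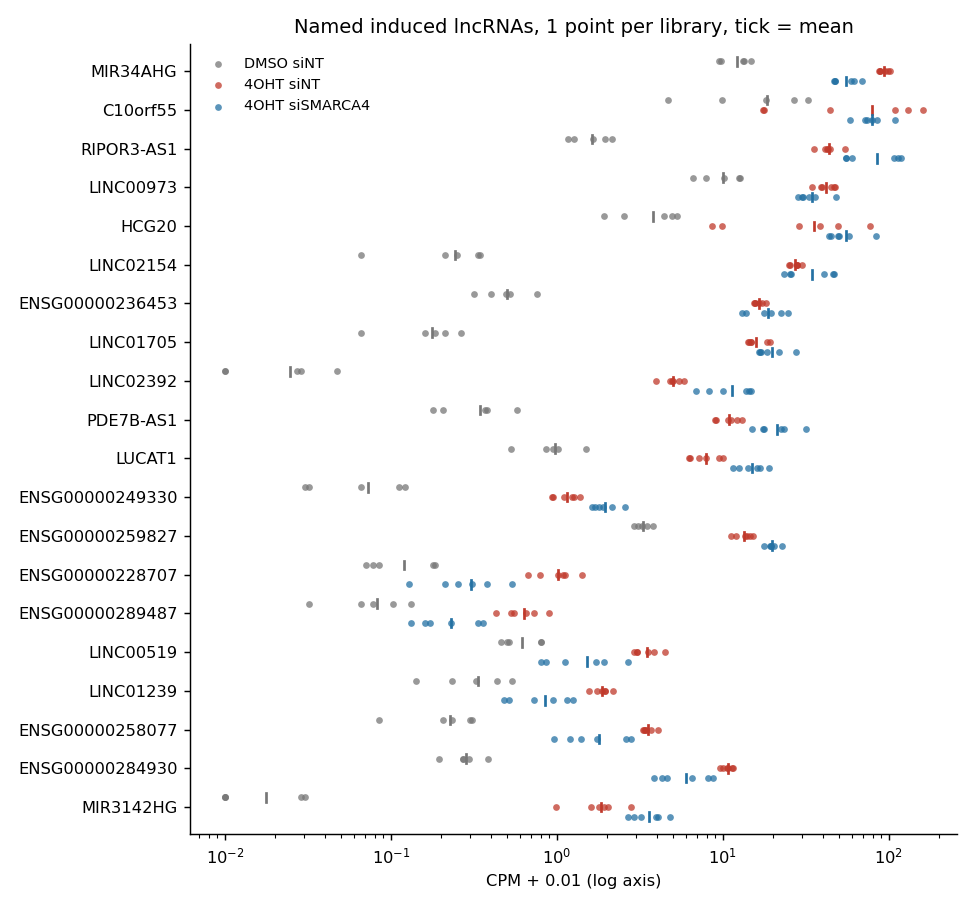
CPM plus a small constant of the named members in each library, log axis. Each row is a member, each point a library, coloured by group, and each tick a group mean. MIR34AHG stands at 87.9 to 102 CPM in 4OHT siNT and 9.53 to 14.7 CPM in DMSO siNT, and C10orf55 and HCG20 spread most within 4OHT siNT.

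The position of the members in the genome took no part in the choice. The lncRNAs tested needed only to pass the filter on low counts, while members needed 0.5 CPM in 4OHT siNT. Of the lncRNAs tested 49.4% had antisense exon bases, against 26.7% of members, so the sets differ in level and make-up. Of the 105, 52 (49.5%) lay away from coding genes, meaning that they overlapped none, did not start within 2000 bases of a coding start on the other strand and did not lie within 10000 bases downstream of one, against 19.4% of the 3761 lncRNAs tested. Antisense overlap was the class of 36 members (34.3% against 56.8%), sense overlap of 8 (7.62% against 10.9%), a downstream position of 5 (4.76% against 5.21%) and a divergent start of 4 (3.81% against 7.74%). In 29 members (27.6% against 11.5%) no coding gene started within 100000 bases. Of the members, 32 lay in 13 groups along the same chromosome, among them 3 around NUMB on chromosome 14 and 2 beside COL6A3 on chromosome 2. Starts within a group can be far apart, such as 89351015 for ENSG00000274021 and 90280894 for LINC02392 on chromosome 12. No share over other lncRNAs is given beside these counts, so they are not read as clustering. Exon length was similar, with a median of 1760 bases against 1880.

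The starts differed in their repeats from those of all lncRNAs tested, which include 104 members. An LTR lay over the start of 22 members (21.0% against 5.08% of lncRNAs tested), a MaLR element over 13 (12.4% against 2.07%) and THE1 over 7 (6.67% against 0.505%, 19 lncRNAs). LINE and SINE elements lay over 6 members each (5.71% each, against 5.03% and 5.5%), and 67 starts (63.8% against 82.1%) were outside repeats. The window from 250 bases before to 50 bases after the start had a median GC content of 47.0% in members and 56.0% in lncRNAs tested. It held the motif TGANTCA, wider than the usual AP-1 site, on either strand in 18 members (17.1% against 7.39%). Matches to TGA(C/G)TCA alone were not counted. Of the 18, 6 started in THE1, where 15 of the 19 lncRNAs tested held TGANTCA, and 12 (11.4% against 6.99%) did not. The C/EBP motif TTGCNNAA was in 15 (14.3% against 9.52%). The NF-kB motif (GGGA, any 2 bases, TTCC) was in none of the 105 windows against 1.44% of lncRNAs tested, which says only that these letters were not in these windows. These shares describe annotation and have no test, and base composition differed as given. Reads in a repeat can map to several copies and were shared between them by the counting, so THE1 members could gain or lose counts to other copies.

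**Figure D3:**
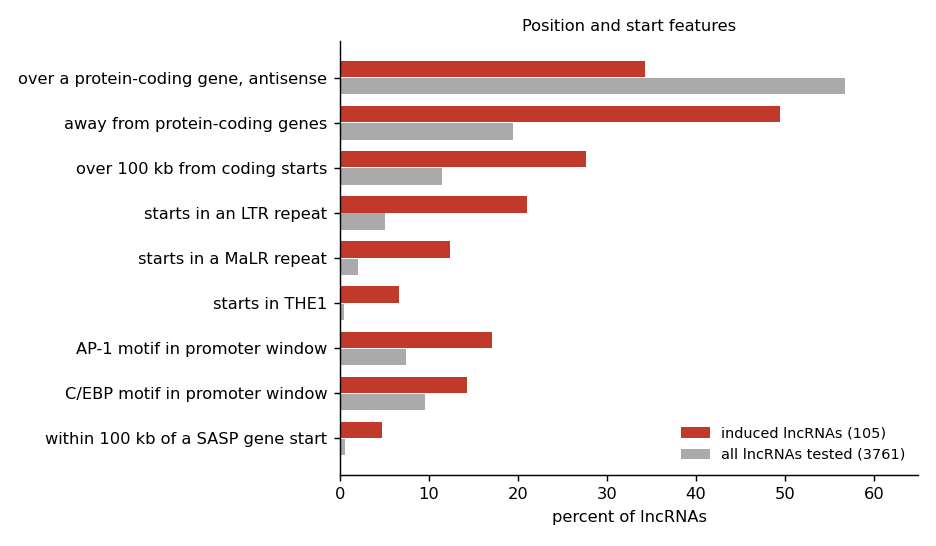
Position and start features of the 105 induced lncRNAs (red) and of the 3761 lncRNAs tested (grey), in percent of each set. Members lie more often away from coding genes (49.5% against 19.4%) and start more often in LTR repeats (21.0% against 5.08%).

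With SMARCA4 knockdown in 4OHT, 27 of 104 members passed the test against 4OHT siNT at an adjusted p under 0.05 in edgeR's quasi-likelihood test, 8 higher and 19 lower, with a median log2 fold change of -0.118. That is 26% of the members, beside 24.2% of all 19473 genes (10.4% higher, 13.8% lower, median -0.024), a share near the background. With VM libraries only, 39.4% of members passed (9 higher, 32 lower) beside 26.9% of all genes, and with V or VM as a covariate 35.6% (9 higher, 28 lower) beside 27.4%. The VM libraries of 4OHT siSMARCA4 are 2-1VM, 2-3VM and 4-2VM, so that setting also changes the mix of siRNA numbers. With the number 4 libraries alone 7 members (6.73%) passed, 5 higher and 2 lower. Beside them stood 6.02% of all genes, with 39.5% of those calls lower, so most calls over all genes were higher too. Over all 17 libraries the share was above the 12.6% of all lncRNAs tested (5.72% higher and 6.86% lower) and below the 50.6% of the 356 protein-coding genes induced by the same thresholds (16.3% higher, 34.3% lower, median -0.253). Libraries did not overlap for 6 members that were higher and 11 that were lower, where 5.77% and 6.13% of all genes and 3.06% and 2.66% of all lncRNAs did not overlap. The 4OHT siNT libraries also took part in choosing the members, which favours lncRNAs that happened to read high in them. Chosen on the number 2 libraries and tested on those of number 4, 9 of 102 lncRNAs (8.82%) passed, 6 higher and 3 lower with a median of -0.016, beside 6.02% of all genes in the number 4 libraries alone. The reverse choice took in 254 lncRNAs, mostly antisense to coding genes, of which 28 of 253 tested (11.1%) passed, 10 higher and 18 lower with a median of 0.262, beside 22.9% of all genes in the number 2 libraries alone. For 97 members every siSMARCA4 library lay above every DMSO siNT library, beside 11.7% of all lncRNAs tested, and 86 had a mean of at least 4 times that of DMSO siNT plus 0.05 CPM. The DMSO siNT levels chose the members, so both counts are descriptions. The rise over DMSO siNT that was left with siSMARCA4 ran from 5.88% to 227% with a median of 94.3%. The lowest value is that of MT1JP, which rests on 1 4OHT siNT library, and the next was 20.4% for ENSG00000228707. There were 16 members under 50%, 45 between 50% and 100% and 44 over 100%.

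Calls are given by level and position beside all lncRNAs tested, which include some under 0.5 CPM in 4OHT siNT, with no test of the differences. Among the 28 members at 5 CPM or more in 4OHT siNT, 6 rose and 6 fell (42.9% called, beside 26% of all lncRNAs at this level). Among the 76 tested below that, 2 rose and 13 fell (19.7%, beside 11.0% of 3369). Of the 52 away from coding genes, 1 rose and 13 fell with a median of -0.311, beside 6.46% higher and 10.7% lower of 728 lncRNAs. Of the 36 in antisense overlap 4 rose and 4 fell with a median of 0.058, beside 4.07% and 4.96% of 2137. The 16 members that follow the antisense level were set apart by their spread among the 4OHT siNT libraries, which are the control group of this test, and that spread works against a call. None of them passed (median 0.055), which is a description, and the 27 calls were among the other 88 tested. With the antisense level as a covariate, HCG20, 1 of the 16, passed (log2 0.57, adjusted p 0.00903 in edgeR), and calls among the 24 members with under 50% of exon bases antisense went from 5 to 10. Calls also went from 22 to 27 among the 76 members tested without antisense exon bases, and from 24.2% to 31.7% over all genes. Counts in sparse repeat loci far from genes also differed between the groups, at 51.2 to 92.5 CPM in 4OHT siNT and 87.9 to 215 in 4OHT siSMARCA4. With that level as a covariate 10 members passed, 5 in each direction, beside 8.32% of all genes. The ranges hardly overlap, so this covariate takes up part of the difference between the groups. The paper reports that SMARCA4 knockdown induced repetitive elements. A part of the knockdown effect and a difference between libraries cannot be told apart here, so calls lost in this setting are a description.

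**Figure D4:**
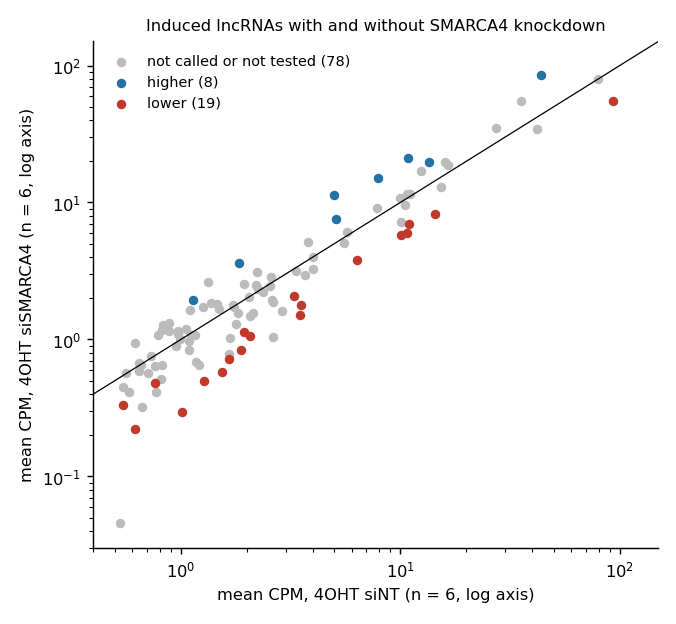
Mean CPM of each member in 4OHT siNT (x) and 4OHT siSMARCA4 (y), log axes, n = 6 libraries each. The line marks equal levels. The 8 members that rose (blue) include the members at 43.6 and 13.5 CPM, and most of the 19 that fell (red) lie under 5 CPM.

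Among the members that rose, LINC02392 and PDE7B-AS1 start in THE1. LINC02392 went from 3.97 to 5.81 CPM (median 4.98) in 4OHT siNT to 6.85 to 14.9 CPM (median 11.9) in 4OHT siSMARCA4, with no overlap. Its log2 fold change was 1.14 (SE 0.189) with an adjusted p of 0.000357 in edgeR. PDE7B-AS1 (ENSG00000237596, chr6:135991936-136225751, minus strand) went from 9.02 to 13.1 CPM (median 11.0) to 14.9 to 31.8 CPM (median 20.1), also without overlap (log2 0.93, SE 0.185, adjusted p 0.00164 in edgeR). The other 5 THE1 members did not pass, with log2 fold changes of 0.31 for LINC02154, 0.26 for LINC01705, 0.14 for ENSG00000236453, -0.05 for LINC00520 and -0.18 for SCAT8. Of the 12 other lncRNAs tested that start in THE1, none rose and 2 fell.

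RIPOR3-AS1, which runs opposite RIPOR3, rose as well, and the siRNA numbers differed. It stood at 108, 119 and 114 CPM in the siSMARCA4 libraries of number 2 and at 60.4, 55.5 and 55.4 CPM in those of number 4, all above the 35.3 to 54.4 CPM of 4OHT siNT (log2 0.93, SE 0.20, adjusted p 0.00276 in edgeR). It did not pass with the number 4 libraries alone (log2 0.47, adjusted p 0.0507) or with the sparse repeat level as a covariate (log2 0.62, adjusted p 0.152). RIPOR3 itself went from 76.3 ± 13.2 to 95.7 ± 20.5 CPM (SD, n = 6 each) and did not pass (log2 0.28, adjusted p 0.29 in edgeR). LINC02154 showed the reverse order, with 25.7, 25.6 and 23.3 CPM in number 2 and 40.9, 46.8 and 46.3 in number 4, beside 25.1 to 29.9 CPM in 4OHT siNT. The difference between numbers was 0.85 (SE 0.174, adjusted p 0.0432) on the log2 scale for RIPOR3-AS1 and -0.93 (SE 0.125, adjusted p 0.00936) for LINC02154 in edgeR's interaction test. These were the only 2 of 104 members that passed it, beside 1.07% of all genes. Counted by number, 40 members passed with number 2 (11 higher, 29 lower, beside 20% of all genes) and 16 with number 4 (8 in each direction, beside 17.2%).

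Both members on the list of inflammatory lncRNAs rose. LUCAT1 (ENSG00000248323, chr5:91054834-91314547, minus strand), a stress-induced lncRNA known to restrain interferon responses, stood at 0.936, 1.49, 0.52, 0.852 and 1.01 CPM in DMSO siNT. It had 6.22 to 10.05 CPM (median 7.55) in 4OHT siNT and 11.5 to 19.1 CPM (median 15.2) in 4OHT siSMARCA4, without overlap (log2 0.89, SE 0.18, adjusted p 0.00182 in edgeR). MIR3142HG (ENSG00000253522, chr5:160438594-160487426, plus strand), the miR-146a host whose seed is given above, had 2 counts over all DMSO siNT libraries. It stood at 0.985 to 2.78 CPM (median 1.85) in 4OHT siNT and 2.68 to 4.78 CPM (median 3.57) in 4OHT siSMARCA4, where the groups overlapped by 1 library each (log2 0.91, SE 0.227, adjusted p 0.00775 in edgeR). With the number 4 libraries alone its log2 fold change was 0.51 and it did not pass (adjusted p 0.256 in edgeR), nor did it under the replicate block described below. They were the only members in a list of 19 inflammatory lncRNAs, of which 11 were tested, with 3 higher and 2 lower in 4OHT against DMSO and 2 higher and 3 lower with siSMARCA4 (45.5% called in each, beside 38% and 12.6% of all lncRNAs). On the list of SASP genes, 17 of 37 rose with siSMARCA4 and none fell, beside 10.4% and 13.8% of all genes.

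MIR34AHG fell. It stood at 46.7, 69.2 and 59.0 CPM with number 2 and at 47.5, 47.3 and 61.6 CPM with number 4, all below the 87.9 to 102 CPM of 4OHT siNT and above the 9.53 to 14.7 CPM of DMSO siNT (log2 -0.80, SE 0.12, adjusted p 0.000158 in edgeR). It was the only member in a list of 20 senescence and p53 lncRNAs, of which 15 were tested, with 6 higher and 3 lower in 4OHT against DMSO and 2 higher and 5 lower with siSMARCA4 (60% and 46.7% called, beside 38% and 12.6% of all lncRNAs). By symbol (MIR...HG) it was 1 of 3 members on the list of microRNA hosts, with MIR3142HG and MIR4280HG (0.769 to 0.415 CPM, adjusted p 0.0966 in edgeR). Of the 36 hosts tested 8 rose and 12 fell in 4OHT, and 1 rose and 5 fell with siSMARCA4 (55.6% and 16.7% called). No member came from the SNHG hosts, where 7 of 25 rose and 5 fell in 4OHT, and none rose and 4 fell with siSMARCA4 (48% and 16% called), where 38% and 12.6% of all lncRNAs were.

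Among the falls without overlap between the groups, the largest were in scarce members. ENSG00000228707 (chr9:116012361-116012965, plus strand) went from 0.661 to 1.41 CPM (median 1.04) in 4OHT siNT to 0.119 to 0.524 CPM (median 0.273) in 4OHT siSMARCA4 (log2 -1.80, SE 0.304, adjusted p 0.000422 in edgeR), and DMSO siNT stood at 0.0608 to 0.175 CPM. LINC00519 (ENSG00000258955, chr14:51304108-51331918, minus strand) went from 2.92 to 4.46 CPM (median 3.29) to 0.797 to 2.66 CPM (median 1.41). LINC01239 (ENSG00000234840, chr9:22646200-22824213, plus strand) went from 1.56 to 2.17 CPM (median 1.91) to 0.469 to 1.24 CPM (median 0.827). ENSG00000258077 (chr12:75563202-75984015, minus strand) went from 3.29 to 4.06 CPM (median 3.40) to 0.958 to 2.77 CPM (median 1.57). None of these overlapped between the groups, with log2 fold changes of -1.23, -1.20 and -1.03 for the last 3. With the number 4 libraries alone none of these 4 passed, at -1.17, -0.68, -1.01 and -0.78 (adjusted p 0.0792, 0.181, 0.0808 and 0.122 in edgeR), and LINC00519 and ENSG00000258077 did not pass with the sparse repeat level as a covariate, at -0.91 and -0.90 (adjusted p 0.0716 and 0.105). Beyond these named falls, the mean of MANCR, named for its association with mitotic cells, went from 10.1 to 5.84 CPM. That of MYOSLID, a smooth muscle lncRNA, went from 10.9 to 6.91 CPM. Their spread and test results are not given here.

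Some members share exon bases with another annotated gene on their own strand, so that reads could be divided between them. This was so for 21 members, 5 of them with a small nuclear or nucleolar RNA gene, and none of those 5 passed. The others share with coding genes, pseudogenes, a microRNA or another lncRNA. ENSG00000259827 (chr16:56682470-56687807, plus strand) shares an exon with MT1X, a metal-binding metallothionein. It went from 11.3 to 15.3 CPM (median 13.9) to 17.7 to 22.7 CPM (median 19.6), a log2 fold change of 0.52 (SE 0.0958), and MT1X from 18.5 ± 2.25 to 27.0 ± 1.97 CPM (log2 0.50, SE 0.098). ENSG00000289487 (chr10:62814433-62919907, minus strand) shares an exon with EGR2, an immediate early transcription factor. It went from 0.423 to 0.882 CPM (median 0.592) to 0.122 to 0.350 CPM (median 0.191), a log2 fold change of -1.51 (SE 0.301), and EGR2 from 8.64 ± 1.79 to 3.79 ± 1.73 CPM (log2 -1.23, SE 0.267). With the number 4 libraries alone neither member passed (log2 0.55 and -1.49, adjusted p 0.051 and 0.052 in edgeR), and ENSG00000289487 did not with the sparse repeat level (log2 -1.16, adjusted p 0.0819). For both pairs the member's counts and those of the gene cannot be fully told apart. Without the members that share exon bases, 19 of 84 passed (22.6%, beside 24.2% of all genes), 4 higher and 15 lower.

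The protein-coding gene whose start is nearest was taken as the neighbour of each member, which gave 98 genes, of which 83 were tested. Neighbours were not part of the choice, but they were measured in the same libraries. In 4OHT against DMSO 71 of 83 passed (85.5%), 60 higher and 11 lower, with a median log2 fold change of 0.997, beside 60.7% of protein-coding genes (29.4% higher and 31.3% lower) and 59.6% of the neighbours of all lncRNAs tested. For members without antisense exon bases the count was 47 of 58 (81.0%), 40 higher and 7 lower. Where members lay over or just downstream of the neighbour and were left out, 44 of 55 neighbours passed (80%), 37 higher and 7 lower. Neighbours that fell include DUSP10, a MAP kinase phosphatase (70.2 ± 6.01 to 27.2 ± 2.95 CPM), the nearest coding gene of LINC01705, LINC02257 and LINC01655.

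SASP genes were near 5 members, 4.76% beside 0.558% of lncRNAs tested with a SASP gene start within 100000 bases. These were C10orf55 by PLAU, ICAM4-AS1 by ICAM1, ENSG00000272114 by VEGFA, ENSG00000287037 by CXCL5 and CXCL3, and ENSG00000287937 by IL1B and IL1A. The first 4 follow the antisense level. ENSG00000287937, 12359 bases from the IL1B start on the same strand, does not, and had 0.71 CPM in 4OHT siNT and 0.57 in 4OHT siSMARCA4. It lies within 10000 bases downstream of IL1B. Reads that run on past the end of IL1B and a transcript of its own cannot be told apart in these counts. Of these genes CXCL5 (log2 1.05), CXCL3 (0.76), IL1A (0.55) and VEGFA (0.47) rose with siSMARCA4, with adjusted p of 0.00264, 0.0244, 0.0366 and 0.00717 in edgeR. PLAU, ICAM1 and IL1B did not pass. IL1B went from 0.821 ± 0.402 to 870 ± 191 CPM between DMSO siNT and 4OHT siNT and stood at 1007 ± 530 CPM with siSMARCA4 (log2 0.17, SE 0.289, adjusted p 0.723 in edgeR).

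With siSMARCA4, 34 of the 83 neighbours passed (41.0%), 17 in each direction, beside 28.5% of protein-coding genes and 29.5% of the neighbours of all lncRNAs. Most neighbours rose with 4OHT, and 50.6% of the protein-coding genes induced by the thresholds of the members passed. With the number 4 libraries alone 12 neighbours passed (14.5%, 6 in each direction, beside 6.02% of all genes), and with the sparse repeat level as a covariate 19 (22.9%, 12 higher and 7 lower, beside 8.32% of all genes). The shares of protein-coding genes in these 2 settings are not given here. Over all libraries protein-coding genes passed more often than all genes (28.5% against 24.2%). Without antisense exon bases it was 22 of 58 (37.9%), 9 higher and 13 lower. Member and neighbour both passed in 13 pairs, with the same direction in 11 (84.6%). Over all lncRNAs tested this was 148 of 169 pairs (87.6%), so the members did not stand out in this. The log2 fold changes of the 89 tested pairs had a Pearson r of 0.35 beside 0.37 over all lncRNAs, given as a description since both genes of a pair come from the same libraries and some share reads.

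At 3 of the loci, more than 1 member was called. On chromosome 2, ENSG00000222022 and ENSG00000222032 fell from 1.55 to 0.578 and from 1.66 to 0.723 CPM, and COL6A3, a collagen VI chain and 1 of the fibroblast markers above, fell from 4238 ± 646 to 2315 ± 918 CPM (log2 -0.91, adjusted p 0.00623 in edgeR). At NUMB, an inhibitor of Notch, ENSG00000285006 fell from 14.4 to 8.28 CPM and ENSG00000284930 (chr14:73458850-73466167, minus strand) from 9.67 to 11.6 CPM (median 10.7) to 3.86 to 8.70 CPM (median 5.55), and NUMB from 226 ± 17.9 to 181 ± 33.0 CPM (log2 -0.36, adjusted p 0.0152 in edgeR). ENSG00000284930, at a log2 fold change of -0.86 over all libraries, did not pass with number 4 alone (-0.55, adjusted p 0.148 in edgeR) or with the sparse repeat level (-0.72, adjusted p 0.0761). These 2 members share exon bases with each other, and the first also with NUMB. At GABRA2, a GABA receptor subunit gene, ENSG00000260878 rose from 5.09 to 7.63 CPM and ENSG00000249330 (chr4:46390255-46510194, plus strand) from 0.926 to 1.37 CPM (median 1.16) to 1.62 to 2.56 CPM (median 1.85), while GABRA2 stood at 251 ± 17.7 and 258 ± 41.6 CPM (log2 0.00, SE 0.103). ENSG00000260878 starts inside GABRA2 on the same strand, so its reads and those of GABRA2 may not be fully told apart. Its nearest coding start is that of GABRG1, at 0 CPM in every group. ENSG00000249330 did not pass with number 2 alone (log2 0.67, adjusted p 0.0971 in edgeR), number 4 alone (0.88, 0.119) or the sparse repeat level as a covariate (0.67, 0.154), beside 0.73 over all libraries. It also did not pass under the replicate block described below.

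In other pairs, too, member and neighbour were both called. LINC02392 and ATP2B1, a plasma membrane calcium pump 571528 bases away, rose together (152 ± 13.5 to 276 ± 31.8 CPM for ATP2B1, log2 0.82). PDE7B-AS1 rose with MTFR2 (0.653 ± 0.0567 to 1.12 ± 0.232 CPM, log2 0.72), LINC01239 fell with DMRTA1 (1.62 ± 0.397 to 0.849 ± 0.116 CPM, log2 -0.97) and ENSG00000254645 with INSC (42.1 ± 9.44 to 23.5 ± 3.34 CPM, log2 -0.88). The 2 pairs with opposite directions were ENSG00000228707 and PAPPA, a protease of IGF-binding proteins that rose from 171 ± 19.7 to 364 ± 73.4 CPM (log2 1.04), and LINC00519 and TMX1, which rose from 72.8 ± 13.2 to 104 ± 6.83 CPM (log2 0.48). Neighbours of members that did not pass include PTGS1, the constitutive cyclooxygenase, which fell from 55.4 ± 12.9 to 13.2 ± 3.04 CPM (log2 -2.11), and POSTN, a matrix protein that fell from 628 ± 33.2 to 336 ± 77.2 CPM (log2 -0.95).

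**Figure D5:**
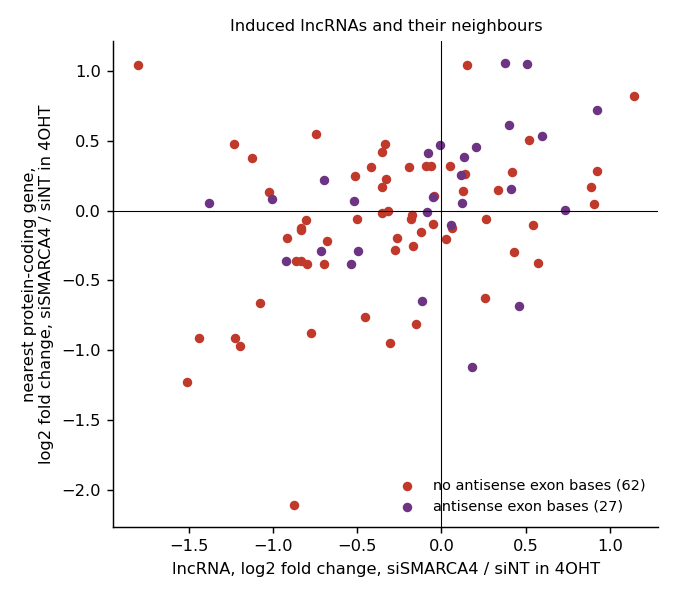
Log2 fold change with siSMARCA4 of each induced lncRNA (x) and of its nearest protein-coding gene (y), 1 point for each of 89 pairs tested. Red points are the 62 pairs of members without antisense exon bases and purple points those with them. PTGS1 lies lowest at -2.11, and PAPPA at 1.04 lies above the member with the largest fall, ENSG00000228707 at -1.80.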

How the data were processed

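RNA-seq of 17 libraries was used. Per the labels and the study's methods, the authors trimmed reads with Cutadapt 4.7, aligned them with HISAT2 2.2.1 to GRCh38 and counted genes and repeats with TElocal, strand-specific, sharing multi-mapping pairs by maximum likelihood; the deposited values are thus estimated counts, rounded here to whole numbers. The methods name Ensembl release 100, but the gene rows hold every gene of GENCODE 44, whose GRCh38 annotation was used for types, positions and neighbours. CPM was taken over gene counts.

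Genes and repeat subfamilies were fitted in 1 table with edgeR 4.0.16 (TMM, filterByExpr, quasi-likelihood test, 1 term per group, 17 libraries), with Benjamini-Hochberg adjustment over the 19473 genes tested. DESeq2 1.42.0 was an alternative. The code was tested on simulated data. The difference between siRNA numbers was an interaction in the 12 4OHT libraries. The promoter window was 300 bases long, repeats were those of the deposited tables, and microRNAs came from RefSeq. The sequence windows of some members are not reported here. Intervals cover counting error only.

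The members, lists and tests were chosen with earlier results of these data known. Text names the 8 members of highest level, the 6 largest rises and 6 largest falls without overlap, members in the lists and the threshold edges; members beyond these, and neighbours other than the nearest of a named member, were named after their values were seen. No 2 libraries of a group were alike within sampling noise (lowest chi-square per gene 4.68).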

Additional observations from a re-analysis of the deposited data

Results flagged for a closer look

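A total of 60 groups of libraries over 20 named members were checked for a library far from the others, which chance gives in about 1 in 20 groups. HCG20 had 1 such library: 4OHT siSMARCA4 2-3V stood at 84.0 CPM, beside 44 to 57.9 CPM in the other 5. HCG20 is among the members that follow the antisense level, which was 0.792% in that library and 1.09% in 4-3V, 1 of the other 5. The cause was not tested.

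The knockdown effect differed between siRNA numbers for 2 of the 20 named members in edgeR's interaction test. For RIPOR3-AS1 the log2 fold change was 1.27 with number 2 and 0.42 with number 4, a difference of 0.85 (SE 0.174, adjusted p 0.0432). For LINC02154 it was -0.22 with number 2 and 0.71 with number 4, a difference of -0.93 (SE 0.125, adjusted p 0.00936). Neither follows the antisense level. Over all 104 members tested, these 2 were the only ones that passed after adjustment, beside 1.07% of all genes. An unadjusted p under 0.05 in this test was found for 26 members. No share over all genes is given beside that count, so it is not read as a result.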

How the results depend on the processing

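Of the 20 named members, every one kept its direction in the main comparison under DESeq2, other size factors, no filter on low counts and genes alone. Of the named members, 10 lost a call in at least 1 other setting, 19 times in all. With number 4 alone these were RIPOR3-AS1, ENSG00000249330, ENSG00000259827, MIR3142HG and all 6 named falls. With sparse repeat counts, whose level is largely confounded with the knockdown, they were RIPOR3-AS1, ENSG00000249330, ENSG00000289487, LINC00519, ENSG00000258077 and ENSG00000284930. Calls were gained by 3: HCG20 with number 2 alone (1.62) and with the antisense level as a covariate (0.57), LINC00973 with VM libraries only (-0.54), number 2 alone (-0.59) and 1 library left out (-0.45), and LINC02154 with number 4 alone (0.75). The number of members called with siSMARCA4 was 41 with VM libraries only (9 higher, 32 lower, 39.4% beside 26.9% of all genes). It was 37 with V or VM as a covariate (27.4% of all genes) and 10 with sparse repeat counts as a covariate (8.32%). With number 4 alone it was 7 (5 higher, 2 lower), beside 6.02% of all genes, with 39.5% of those calls lower. For lncRNAs chosen on number 2 and tested on number 4 it was 9 of 102, beside the same 6.02%. At ratios of 2 and 8 it was 59 of 246 and 15 of 50, beside 24.2% of all genes in the main fit. With 1 library left out it was 23 to 31, beside 19.1% to 27.1% of all genes. The median log2 fold change of the members was -0.298 with V or VM as a covariate and -0.32 with VM libraries only. It was 0.262 for the 254 lncRNAs chosen on number 4 and tested on number 2, of which 97 are members. Neighbours called with siSMARCA4 numbered 12 of 83 with number 4 alone and 19 of 83 with sparse repeat counts, beside 6.02% and 8.32% of all genes. They numbered 81 and 15 at ratios of 2 and 8, 58 over every coding start within 100000 bases and 21 of 55 without overlapping or downstream members. In 4OHT against DMSO they numbered 151, 32, 127 and 44 of 55 in the last 4 of these. The sets at other ratios and over every coding start hold other numbers of genes, not given here. Their counts therefore cannot be read as shares. With 1 library left out, the ranges were -0.201 to -0.079 for the median, 68 to 74 and 30 to 38 for neighbours, and -1.74 to -1.54 for SMARCA4. C10orf55 turned to 0.65 with number 2 alone, 0.94 with sparse repeat counts and ranged from -0.26 to 0.28 with 1 library left out, above 0 in 4 of the 17 (0.02, 0.05, 0.14 and 0.28); ENSG00000236453 to -0.12 with VM libraries only and -0.13 with number 2 alone; LINC02154 to -0.19 with number 2 alone. The cause was not tested, beyond fewer libraries or other members where the setting itself has them.

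The replicate block (siRNA and replicate number) gave 18 of 104 members called, 5 higher and 13 lower, beside 14.8% (2882) of all genes, and C10orf55 turned to 0.52. Under the block ENSG00000249330 and MIR3142HG lost their calls (adjusted p 0.0515 and 0.0588 in edgeR). Their log2 fold changes there were 0.73 and 0.93, beside 0.73 and 0.91 in the main fit. The labels do not state that numbers pair libraries, and the main fit did not take them as pairs. Correlations of deviations between same-numbered 4OHT siNT and 4OHT siSMARCA4 libraries were 0.0524, 0.104, -0.105, -0.0368, 0.297 and -0.0365. The fits by siRNA number and the interaction did set each siSMARCA4 number against the siNT libraries of the same number. Differences between those siNT libraries enter these effects. The number 2 libraries of 4OHT siNT include 2-2VM and 2-3VM, at low antisense levels of 0.144% and 0.145%.

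Alternatives added after seeing the data concern the antisense level. With it as a covariate 37 members were called (11 higher, 26 lower), beside 31.7% of all genes, and without 4OHT siNT 2-2VM and 2-3VM 29 (8 higher, 21 lower; median -0.244), beside 23.0% of all genes, with 52.7% of those calls lower. Without antisense exon bases it was 22 of 76 (28.9%, beside 24.2% of all genes), and 27 of 76 with the covariate (35.5%, beside 31.7%). Among members, 15 of the 76 tested under 5 CPM passed and 12 of 28 above; the part of depth in this was not tested.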

Other observations

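The lncRNAs that met the thresholds when they were applied to the number 4 libraries, and did not meet them over all libraries, numbered 157, and 147 of them overlap a coding gene antisense. The choice fixed that they read low in the DMSO siNT libraries of number 4 and high in the 4OHT siNT libraries of number 4, and favoured a smaller difference in number 2, so their levels in number 2 are a description. In the number 2 libraries their median level was 0.636 to 1.19 CPM in DMSO siNT, and in 4OHT siNT it was 1.49 CPM in 2-1VM and 0.211 and 0.233 CPM in 2-2VM and 2-3VM. The 4OHT siSMARCA4 libraries took no part in the choice and stood at 0.657 to 1.26 CPM.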
